A study of Homo sapiens with 6 samples.

Results

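The transcriptome described here is that of C4-2 cells kept in vehicle alone, and its members are the 3 samples whose column names and labels read DMSO, out of 6 samples in the series. C4-2 is an established human prostate cancer line that grows without added androgen and was derived from LNCaP cells after passage in castrated mice. The cells were grown in RPMI medium with 10% fetal bovine serum and given 0.1% DMSO, and the labels give 6 days as the time of treatment in the series. The other 3 samples received IPI-9119, an inhibitor of fatty acid synthase, at 100 nM. They give no level or spread below and enter only the smallest read total that a gene has over the whole table. Nothing in the labels says whether the 3 vehicle samples came from separate cultures, so the spread between them may be technical.

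Prostate luminal cells are secretory epithelium. They depend on the androgen receptor, a ligand-activated transcription factor that drives genes such as KLK3, which encodes prostate-specific antigen. Prostate cancers, also those that recur after androgen deprivation, commonly keep this receptor active and make much of their own fatty acid and cholesterol, with acetyl-CoA, malonyl-CoA and the mevalonate pathway as the routes in.

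Poly(A)-selected RNA was sequenced from each sample, and the deposited table holds 14456 genes. The reads assigned to these genes numbered 23448035, 21952620 and 22910520 in libraries 1, 2 and 3, an order kept wherever 3 values follow each other below. Levels of different genes are compared as TPM, in which reads are divided by the gene's exonic length and scaled to a sum of 1000000 transcripts in each library. The 3 libraries were close to each other, with Pearson r of log2 values between 0.992 and 0.993 for each pair over all genes. Because each library is RNA from a whole culture, a gene on in fewer cells and a gene with less RNA per cell cannot be told apart.

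Expression was concentrated in a small group of genes. The 10 genes with the most reads held 6.40% ± 0.155 (SD, n = 3) of all reads, with 6.48%, 6.22% and 6.51% in the 3 libraries. The 100 genes with the most reads held 22.9% ± 0.417, and 670 genes sufficed for 50% of the reads. At the other end, 4989 genes held 90% of the reads. Among the 14409 genes with an annotated length, the median level was 13.9 TPM, and the quartiles were 3.87 and 43.9 TPM. The class at 1000 TPM or more held 135 genes and 34.9% ± 0.633 of all TPM. A further 1587 genes stood between 100 and 1000 TPM, 6471 between 10 and 100, 4933 between 1 and 10, and 1283 under 1 TPM. Protein-coding genes took 98.4% of the reads.

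**Figure D1:**
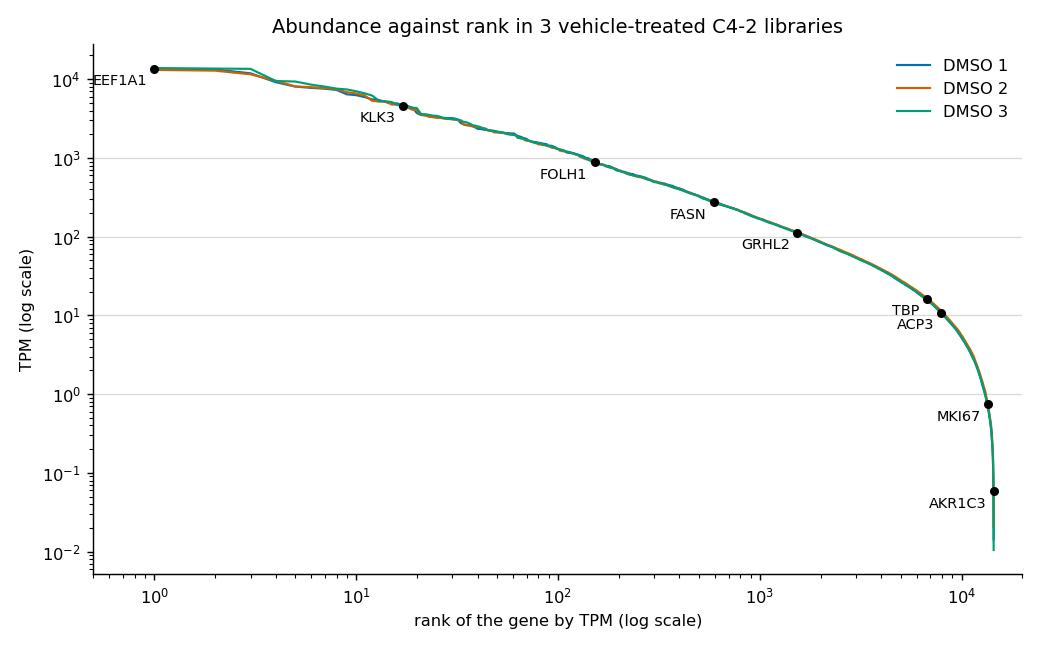
TPM of each gene (y, log scale) against its rank by TPM (x, log scale) in the 3 vehicle-treated libraries, each drawn as a line, with the mean level and rank of 9 named genes as points. Below the first 20 ranks or so the 3 lines lie over each other, and the curve runs from EEF1A1 at 13498 TPM to about 1 TPM, where the curve bends down through MKI67 at 0.744 TPM and AKR1C3 at 0.0582 TPM.

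EEF1A1, the factor that carries aminoacyl-tRNA to the ribosome, stood at the head of both rankings by its mean over the libraries. It lies at chr6:73515750-73523797 on the minus strand (GRCh38, GENCODE 29) and held 2.23% ± 0.0773 of all reads. In TPM it measured 13522, 13132 and 13839, which is 969 times the median gene. EEF2, the factor that moves the ribosome along the mRNA, held the next largest share of reads at 0.725% and stood at 6494 ± 193 TPM. KLK3 came next in reads at 0.588%, above every ribosomal protein gene. RPL13A, TPT1, RPL3, RPS6, RPS18, RPLP0 and the constitutive chaperone HSPA8 completed the 10 largest shares of reads, between 0.361% and 0.464% each.

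Of the 30 genes highest in TPM, 16 encode cytosolic ribosomal proteins and 9 lie on the mitochondrial genome. The remaining ones are EEF1A1, EEF2, KLK3, the chaperone HSP90AB1 and the short processed pseudogene RPL41P1. Of the first 30 genes by mean TPM, 28 were among the first 30 in each library, and of the first 100, 96 were. The exact order is less settled. Of the 29 pairs of neighbours in the first 30, 10 kept their order in all 3 libraries, and in 23 the gap between the means was smaller than the larger of the 2 SDs. Between the libraries, membership of the top was therefore steadier than position within it. Whether the same genes fill the top with other gene lengths was not tested.

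The extreme levels of very short features deserve a separate reading. RPL41P1 is annotated as 81 bases long and measured 13220 ± 354 TPM from 20297 reads, next to EEF1A1. Its sequence is a copy of RPL41, which itself stood at 5015 ± 206 TPM over 1088 bases, so reads may have been split between the 2 genes in the counting. The mitochondrial tRNA gene MT-TN, 73 bases long, measured 9346 ± 188 TPM. In all, 34 genes are shorter than 200 bases and held 3.17% of all TPM, and whether reads of surrounding RNA enter such short features was not tested.

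Ribosomal protein genes formed the largest functional block. Their list was drawn by gene name from the coding genes in the table, so all 85 were analysed by construction. Of these genes 81 stood at 100 TPM or more. Together the 85 held 14.7% ± 0.339 of all TPM, with 15.1%, 14.4% and 14.7% in the 3 libraries. Their median was 1253 TPM against 13.9 TPM over all genes. RPS18, a protein of the small subunit, measured 7757, 7452 and 7589 TPM, followed by RPL13A of the large subunit at 7056 ± 238 TPM and RPS6, the substrate of S6 kinase, at 5346 ± 178 TPM. At the low end stood the paralogs that belong to other tissues or other functions: RPS27L at 40.9 ± 2.03 TPM and RPL3L, the striated muscle form of RPL3, at 1.58 ± 0.36 TPM. RPL3 itself stood at 3198 ± 68 TPM.

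Of 27 translation factors 22 stood at 100 TPM or more, with a median of 422 TPM, below that of the ribosomal protein genes. TPT1, a small conserved protein that binds elongation factor complexes, measured 2216, 2031 and 2130 TPM. EEF1B2, a subunit of the exchange factor for EEF1A1, stood at 1231 ± 59.3 TPM and the poly(A)-binding protein PABPC1 at 1518 ± 66.2 TPM. EIF4E, which binds the mRNA cap, was low among them at 27.1 ± 0.988 TPM, and the helicase EIF4A1 measured 27.9 ± 1.27 TPM, below its paralog EIF4A2 at 132 ± 8.36 TPM.

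Overlapping gene models stand beside the lowest of these values. EEF1G, another subunit of the same exchange factor, measured 1.3, 1.41 and 0.922 TPM from 62 reads in all. In GENCODE 29, 99.9% of its exonic bases also belong to another annotated gene on the same strand, and the share for EIF4A1 is 48.6%. Over the table, 202 genes share over 50% of their exonic bases with another gene on the same strand, and their median was 5.67 TPM, against 14.1 TPM for the 12149 genes that share none. Counting programs can set aside reads that fall in 2 genes. The setting used by the authors is not given in the sources used here, and the part of overlap in the low values of EEF1G and EIF4A1 was not tested.

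The 13 mitochondrially encoded protein genes, all subunits of the respiratory chain or of ATP synthase, held 6.39% ± 0.631 of all TPM. MT-CO3, a subunit of cytochrome c oxidase, led them with 11873, 11526 and 13656 TPM. MT-CO1 followed at 8381 ± 990 TPM and MT-ND3 of complex I at 8004 ± 77.5 TPM, while MT-ND6 stood at 682 ± 59.3 and MT-ND5 at 557 ± 93.7 TPM. In TPM library 3 was the highest for 12 of the 13 genes, the exception being MT-ND3. In normalised counts library 3 was the highest for MT-ND3 as well, at 16276, 15560 and 16327. Mitochondrial genes as a whole took 1.58% of the reads in library 3 and 1.36% in library 2, and library 1 was the lowest. The median SD of log2 values among the 13 genes was 0.18, against 0.074 over all genes with a mean normalised count of at least 100.

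The labelled cell type was then set against marker lists. The labels call the cells epithelial-like and prostatic. All 15 listed markers of luminal prostate epithelium were analysed, and 13 stood at 100 TPM or more, with a median of 471 TPM. KLK3 measured 4636, 4737 and 4343 TPM. FOLH1, which encodes prostate-specific membrane antigen, stood at 880 ± 7.79 TPM. TMPRSS2, a serine protease of the apical surface, measured 814, 890 and 772 TPM, and SLC45A3, also known as prostein, 678 ± 28.6 TPM. The luminal keratin pair was high, KRT18 at 741 ± 30.3 TPM and KRT8 at 250 ± 8.49 TPM. The transcription factors SPDEF, FOXA1 and HOXB13 followed at 471 ± 25.9, 398 ± 21.5 and 345 ± 9.78 TPM, and the adhesion genes CDH1 and EPCAM at 482 ± 21.4 and 239 ± 12.1 TPM.

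A pair of the luminal markers stood far below the rest. ACP3, which encodes prostatic acid phosphatase, a major product of normal luminal cells, measured 11.3, 10.5 and 10.6 TPM. KRT19 measured 5.9, 4.19 and 7.04 TPM. KLK3 was thus more than 100 times as high as either of them in each library, although all are taken as markers of the same cell type.

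Markers of other cell types were low or not analysed here. Of 10 basal markers 4 were analysed. ITGA6, a laminin receptor subunit, measured 34.5 ± 1.49 TPM, while its usual partner ITGB4 stood at 0.234, DST at 0.215 and LAMB3 at 0.189 TPM. The basal keratins KRT5 and KRT14 and the factor TP63 were not analysed here. None of the 6 leukocyte markers was analysed, and the endothelial markers VWF and KDR stood at 0.767 and 0.476 TPM. Of the fibroblast and smooth muscle list, 5 of 10 were analysed and none exceeded 1.6 TPM, the value of TAGLN. COL3A1, a fibrillar collagen, measured 1.23 ± 0.06 TPM.

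The mesenchymal and neuroendocrine lists each held a gene well above the others. FN1, the matrix protein fibronectin, measured 26.8, 33 and 32.2 TPM, while the intermediate filament VIM stood at 7.06 ± 0.351 TPM and SNAI2, a repressor of epithelial genes, at 3.59 ± 0.643 TPM. SYT4, a synaptotagmin of secretory vesicles, measured 85.8, 85.1 and 88.4 TPM. Other neuroendocrine markers were low, with SCG2 at 6.21 ± 0.934, ENO2 at 2.28 ± 0.0827, SYP at 1.61 ± 0.342 and CALCA at 1.44 ± 0.421 TPM. CHGA, CHGB, NCAM1 and INSM1 were not analysed here.

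**Figure D2:**
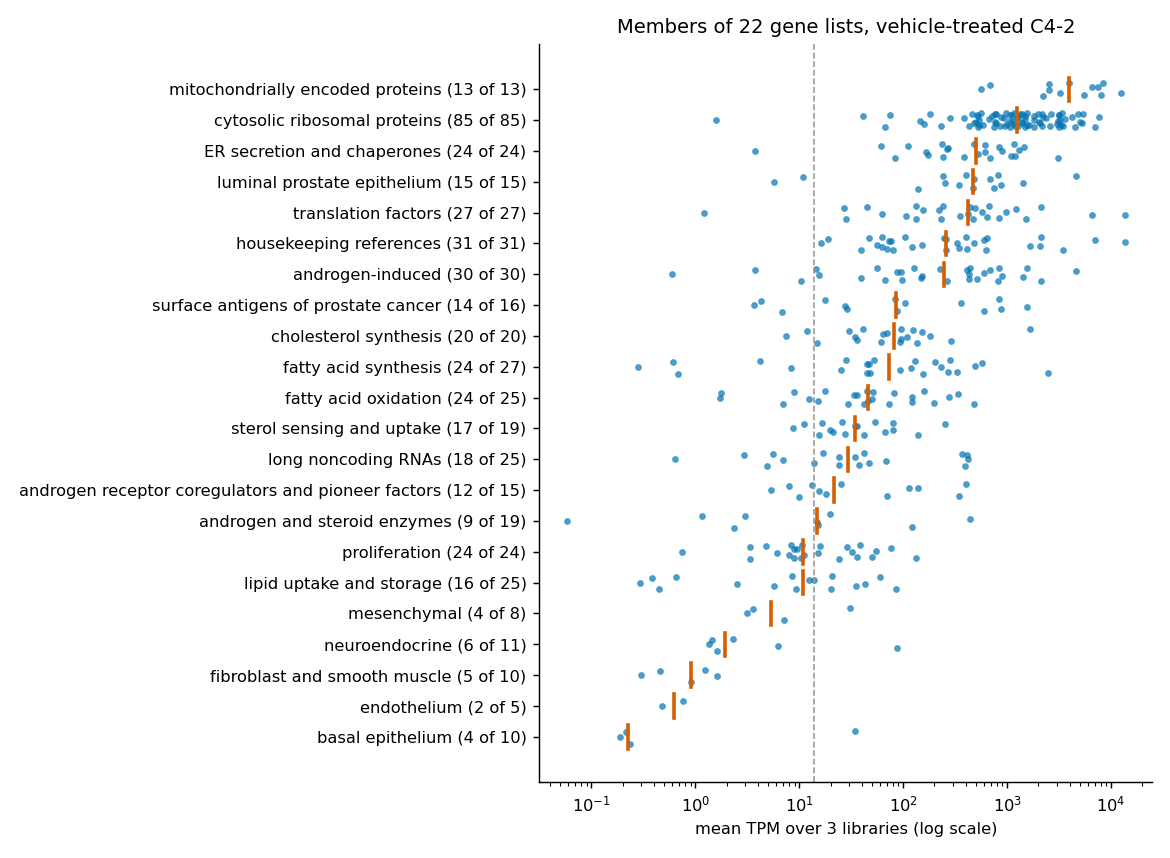
Mean TPM over the 3 libraries (x, log scale) of each analysed gene in 22 lists (y, with the number analysed of the number listed); each dot is a gene, the vertical bar is the list's median and the dashed line is the median of all genes at 13.9 TPM. The medians of the luminal, androgen-induced, ER and ribosomal lists lie to the right of the dashed line, and all dots of the basal, endothelial and fibroblast lists lie to its left apart from ITGA6.

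Partners of the androgen receptor, the factors that open chromatin for it and those that act on transcription with it, were uneven. FOXA1 and HOXB13, given above, led them, and GATA2, which measured 64.4, 82.4 and 63.8 TPM, was highest in library 2. GRHL2, an epithelial factor, measured 113 ± 8.99 TPM. The coactivators and corepressors were lower: NCOA2 at 25.4 ± 2.09, NCOA1 at 18.3 ± 2.4, NCOR1 at 15.5 ± 1.96, EP300 at 13.4 ± 3, NCOA3 at 7.98 ± 0.804 and CREBBP at 5.38 ± 1.03 TPM. Their messages are long, and library 2 was the highest for each of these 6 genes. EP300 had a wide spread, with an SD of log2 values of 0.33.

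Genes known to be induced by androgen were abundant under vehicle. All 30 were analysed, 19 stood at 100 TPM or more, their median was 245 TPM and together they held 1.71% ± 0.0497 of all TPM and 2.58% ± 0.054 of the reads. Behind KLK3 came SORD, sorbitol dehydrogenase of the polyol pathway, at 2102, 2110 and 2115 TPM. PLPP1, a lipid phosphate phosphatase, measured 1561 ± 29.8 TPM, and ACSL3, which activates long-chain fatty acids, 900 ± 26.4 TPM. The cochaperone FKBP5 stood at 508 ± 22.2 TPM, the efflux pump ABCC4 at 440 ± 17.2 TPM and the kinase CAMKK2 at 226 ± 10.8 TPM.

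The same list had a low tail. The zinc finger factor ZBTB16 measured 14.6 ± 1.33 TPM, low for the list but close to the median of all genes at 13.9 TPM. Below that median stood the metalloreductase STEAP4 at 3.76 ± 0.199 TPM and the noncoding RNA PART1 at 0.753, 0.375 and 0.642 TPM. The list therefore spanned from 0.59 to 4572 TPM within the same libraries.

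Kallikreins show how unequal members of a single locus can be. KLK3 held 81.8% ± 0.298 of the TPM of the 6 analysed kallikreins. KLK2, the neighbouring gene that encodes a trypsin-like protease able to activate prostate-specific antigen, measured 601, 605 and 573 TPM, and KLK4 392, 447 and 387 TPM. The log2 ratio of KLK3 over KLK2 was 2.95 ± 0.02 and that of KLK2 over KLK4 was 0.54 ± 0.09, with no overlap between the libraries of neighbouring members. The ratios depended on the gene length used. With the longest annotated transcript they were 2.64 and 1.10, and with the median transcript length 2.20 and 1.99. KLK15 followed at 13.2 ± 1.34 TPM, KLK1 at 2.35 ± 0.564 and KLK12 at 0.805 ± 0.256 TPM.

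The 250 bases before the start of KLK3 and of KLK2 are shown because the proximal promoters of the pair resemble each other far more than their levels do. RefSeq (GRCh38.p14) places these windows on the plus strand at chr19:50854665-50854914 and chr19:50873189-50873438. Capitals mark the longest run of letters that both windows share, and the letters TATA nearest the start.
KLK3: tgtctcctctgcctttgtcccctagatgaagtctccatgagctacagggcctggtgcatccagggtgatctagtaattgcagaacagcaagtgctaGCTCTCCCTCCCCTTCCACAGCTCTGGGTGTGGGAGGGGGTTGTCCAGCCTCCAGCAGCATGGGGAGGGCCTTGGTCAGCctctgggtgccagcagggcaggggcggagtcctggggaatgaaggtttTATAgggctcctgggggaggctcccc
KLK2: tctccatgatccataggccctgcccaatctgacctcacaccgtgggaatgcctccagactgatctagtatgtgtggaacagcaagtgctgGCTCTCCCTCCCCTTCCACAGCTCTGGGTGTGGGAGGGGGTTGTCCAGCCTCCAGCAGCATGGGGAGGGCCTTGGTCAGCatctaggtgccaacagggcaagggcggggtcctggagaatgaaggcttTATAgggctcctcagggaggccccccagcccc
The shared run is 80 bases long and begins 154 bases before the start in KLK3 and 160 bases before it in KLK2. In a global alignment 211 of 263 columns were identical, or 80.2%. TATA begins 26 bases before the start in KLK3 and 32 bases before it in KLK2. The letters AGAACA, a core of androgen receptor binding sites, were found in the KLK3 window and not in that of KLK2. At the matching place, before the same letters GCAAGTGCT, KLK2 has GGAACA. An exact match of letters therefore does not show that KLK2 lacks a site there. On either strand 9.61% of the windows of all coding genes matched held AGAACA, in windows that also take in the 50 bases after the start. The windows say nothing of distal enhancers.

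The window of EEF1A1, the most abundant gene, lies at chr6:73521033-73521282 on the minus strand and is shown for its TATA, in capitals, 28 bases before the start.
EEF1A1: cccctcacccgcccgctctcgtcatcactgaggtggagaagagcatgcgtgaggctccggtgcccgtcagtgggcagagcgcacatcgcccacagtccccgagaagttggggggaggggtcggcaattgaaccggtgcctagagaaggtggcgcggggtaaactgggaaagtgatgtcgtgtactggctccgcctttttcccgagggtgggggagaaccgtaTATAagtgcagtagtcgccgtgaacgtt
The letters TATA lying 40 to 17 bases before a start, read on the gene's own strand, were uncommon in the RefSeq windows of the protein-coding genes analysed: 609 of 14564 windows held them, or 4.18%. Among genes at 100 TPM or more the share was 6.78% (135 of 1990 windows), and among genes under 100 TPM it was 3.77% (474 of 12574). The letters CCAAT on either strand of the whole window, from 250 bases before the start to 50 after it, were held by 38.4% and 34.4% of the windows of these groups, and GGGCGG on either strand by 70.2% and 65.4%. By symbol, 9919 of 12116 coding genes had at least 1 window, 81.9%. For the 126 coding genes at 1000 TPM or more the match reached 72.2% and for those under 1 TPM 79.5%, both under the 80% taken as the least match, so no share is given for them.

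Enzymes of androgen metabolism were uneven. HSD17B10, a mitochondrial dehydrogenase of steroids and acyl-CoAs, led with 457, 427 and 433 TPM, and HSD17B4, a peroxisomal multifunctional enzyme, stood at 120 ± 1.98 TPM. With the median length of the annotated transcripts in place of the merged exons, HSD17B12 was the highest HSD17B gene. SRD5A1, a reductase that makes dihydrotestosterone, measured 15 ± 0.605 TPM, and SRD5A3 of the same family 19.7 ± 2.61 TPM. Both stood above the median of all genes, 13.9 TPM, while SRD5A2 was not analysed here. STS, which frees steroids from sulfate, stood at 14.7 ± 0.798 TPM. AKR1C3, which reduces androstenedione to testosterone, was close to silent at 3, 2 and 0 reads. HSD3B1, CYP17A1 and the UGT2B enzymes were not analysed here.

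Genes of fatty acid synthesis covered over 3 orders of magnitude. Of 27 listed, 24 were analysed, 11 stood at 100 TPM or more and the median was 73.1 TPM. ELOVL5, which elongates polyunsaturated fatty acids, was the highest at 2509, 2490 and 2486 TPM. SCD, the main desaturase of saturated acyl-CoA, measured 540, 594 and 582 TPM, and ACLY, which makes cytosolic acetyl-CoA from citrate, 476, 499 and 492 TPM. FASN, the target of the inhibitor used elsewhere in the series, lies at chr17:82078333-82098332 on the minus strand and measured 241, 300 and 275 TPM, rank 590. ACACA, which makes malonyl-CoA for it, measured 114, 139 and 135 TPM. Library 1 was the lowest of the 3 for FASN, ACACA, SCD and ACLY. The SDs of log2 values were 0.14 for FASN and for ACACA, about 2 times the median of the table, and 0.03 for ACLY.

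Supply and side steps of the pathway lay in the same range. ME1, which yields cytosolic NADPH, stood at 283 ± 3.56 TPM and held 94.5% of the TPM of the malic enzymes analysed. The citrate carrier SLC25A1 measured 154 ± 4.46 TPM. The acetyl-CoA synthetase ACSS2 stood at 25.2 ± 1.31 TPM, and ACLY held 93.3% of the summed TPM of ACLY, ACSS1, ACSS2 and ACSS3. IDH1, the cytosolic isocitrate dehydrogenase, measured 836 ± 9.18 TPM against 122 ± 3.81 TPM for its mitochondrial paralog IDH2.

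Paralogs in this pathway were mostly used very unequally. SCD stood 138 times as high as SCD5 (log2 ratio 7.11 ± 0.28), and ACACA 186 times as high as ACACB, the mitochondrial form that restrains fatty acid oxidation (log2 ratio 7.54 ± 0.12). Among the elongases analysed, ELOVL5 held 83.9% ± 0.0816 of the TPM, ELOVL7 measured 331 ± 0.693 TPM and ELOVL1 119 ± 4.21 TPM. ELOVL6, which elongates palmitate, measured only 0.734, 0.569 and 0.515 TPM, and ELOVL4, which makes very long chains, 0.252, 0.546 and 0.0515 TPM. The FADS genes were graded, with FADS2 at 231 ± 7.06, FADS1 at 45.3 ± 2.29 and FADS3 at 8.37 ± 0.97 TPM. Among the acyl-CoA synthetases, ACSL3 and ACSL1 measured 900 ± 26.4 and 269 ± 3.95 TPM, ACSL4 1.38 ± 0.0562 TPM, ACSL6 0.194 ± 0.0611 TPM, and ACSL5 had 5, 1 and 0 reads.

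**Figure D3:**
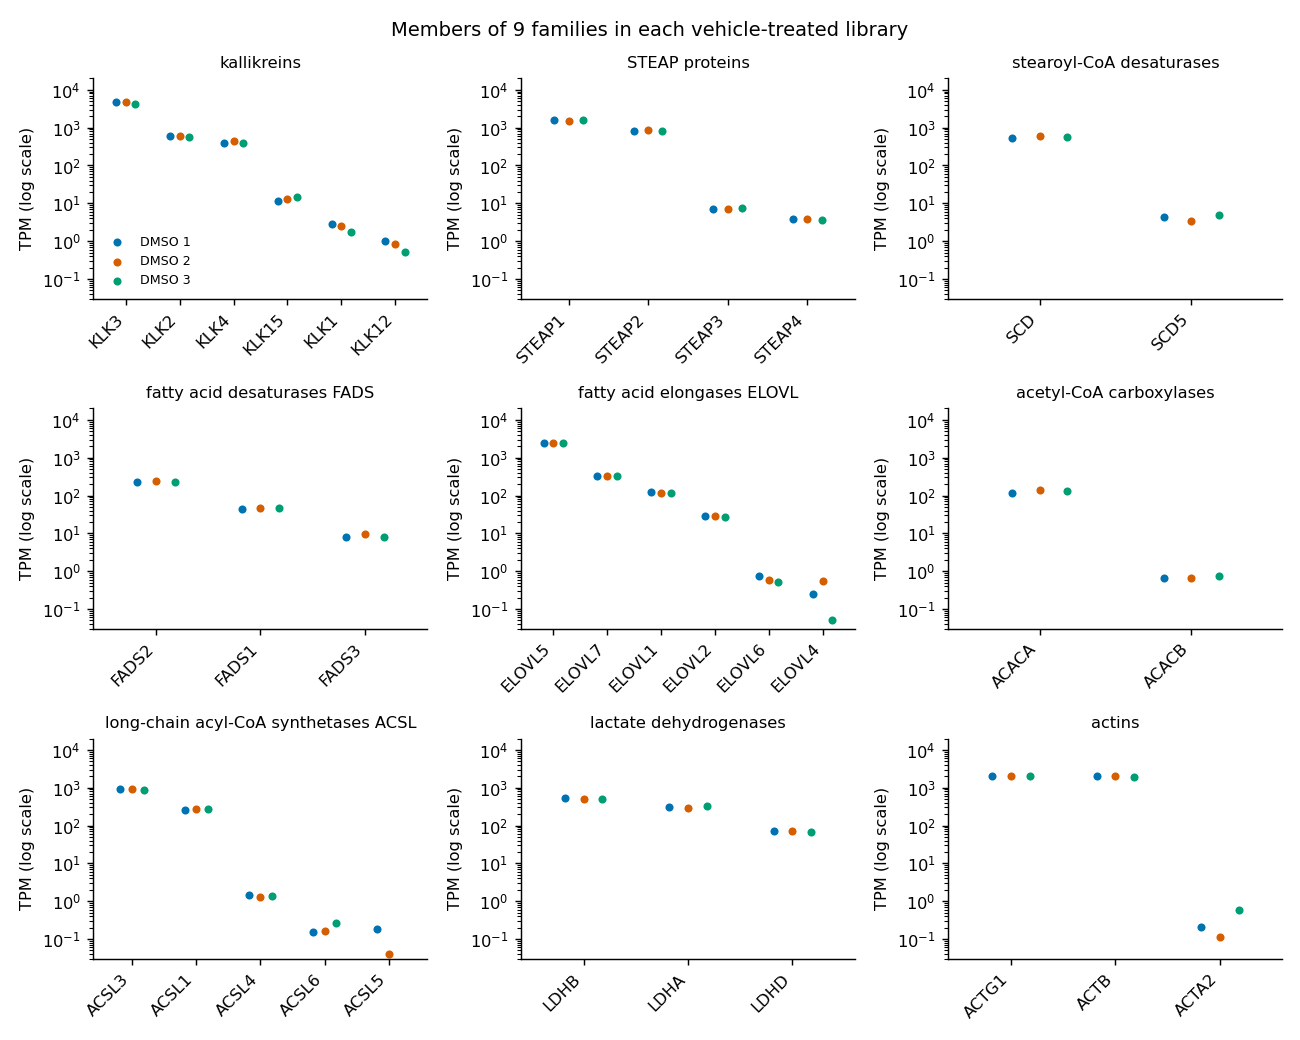
TPM (y, log scale, the same range in each panel) of the analysed members of 9 families (x), with a point for each of the 3 libraries; members at 0 in a library have no point there. Leaders such as KLK3, SCD, ELOVL5 and ACACA stand well apart from the next member, whereas ACTG1 and ACTB lie at the same height.

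All 20 genes of cholesterol synthesis were analysed, 7 at 100 TPM or more, with a median of 80.8 TPM. FDFT1, which makes squalene, stood at 288 ± 9.03 TPM, and PMVK, a mevalonate pathway kinase, at 181 ± 12.1 TPM. SQLE, the epoxidase of squalene, measured 41.3 ± 0.654 TPM. The lowest were MVD at 12 ± 0.471 and MVK at 7.52 ± 0.154 TPM, 2 enzymes of the same short chain as PMVK. The libraries differed little here, with a median SD of log2 values of 0.05, and the sum of the list took 0.330%, 0.331% and 0.333% of all TPM.

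Sterol sensing and uptake genes had a median of 34.0 TPM, above the median of all genes, and 14 of 17 stood between 10 and 100 TPM. INSIG1, which retains the sterol sensor in the ER, was the highest at 251 ± 7.3 TPM, 15.2 times INSIG2. SREBF2, the main regulator of cholesterol genes, measured 131, 151 and 137 TPM and SREBF1, the main regulator of fatty acid genes, 76.2, 88.8 and 76.6 TPM. Their escort protein SCAP stood at 53.2 ± 3.56 TPM. The sterol exporter ABCG1 measured 8.72 ± 1.32 TPM.

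Genes that burn or store fatty acids were present at lower levels. Of 25 oxidation genes 24 were analysed, and their median was 45.3 TPM. ECHS1, the hydratase of the mitochondrial cycle, measured 480 ± 13.7 TPM, the enoyl-CoA isomerase ECI2 339 ± 6.9 TPM and ACADVL, which starts the cycle on very long chains, 273 ± 8.21 TPM. CPT1A, the entry step of fatty acids into mitochondria, measured 42.1, 55.5 and 39.3 TPM, library 2 standing above the others, and CPT1C 1.73 ± 0.244 TPM. ACAA2, the thiolase that ends the mitochondrial cycle, stood at 1.77 ± 0.284 TPM. AMACR, a racemase used as a histological marker of prostate cancer, measured 29.8 ± 0.365 TPM.

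None of the 16 analysed genes of lipid uptake and storage reached 100 TPM. PLIN3, a lipid droplet coat protein, stood at 85.5 ± 1.34 TPM and held 99.2% of the TPM of the perilipins analysed, with PLIN4 at 0.651 ± 0.146 TPM. PNPLA2, the main triglyceride lipase, measured 59.6 ± 6.19 TPM, the fatty acid transporter SLC27A4 43.3 ± 1.56 TPM and the acyltransferase DGAT1 20.8 ± 1.65 TPM. At the bottom stood SLC27A3 at 0.383 ± 0.278 and PNPLA3 at 0.292 ± 0.167 TPM. CD36, FABP4, FABP5, PLIN1 and PLIN2 were not analysed here.

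The secretory machinery was prominent. Of 24 ER genes 21 stood at 100 TPM or more, and the median was 502 TPM. The lectin chaperone CALR measured 3201, 3056 and 2986 TPM, the lumenal chaperones HSPA5 and HSP90B1 1460 ± 54.4 and 1307 ± 36.3 TPM, and XBP1, a transcription factor of the unfolded protein response, 1091 ± 26.8 TPM. AGR2, a disulfide isomerase often secreted by adenocarcinomas, was the exception at 3.75 ± 0.663 TPM.

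Other abundant genes belong to amino acid and polyamine metabolism and to secreted or surface proteins. PSAT1, an aminotransferase of serine synthesis, stood at 2646 ± 55.2 TPM, ODC1, the first enzyme of polyamine synthesis, at 2280 ± 60.1 TPM, ASNS, asparagine synthetase, at 1246 ± 24.6 TPM and ATF4, a transcription factor of the amino acid response that regulates genes such as ASNS, at 1156 ± 21 TPM. The stress cytokine GDF15 measured 2387 ± 125 TPM, the calcium-binding protein S100P 2074 ± 81.2 TPM, the secreted glycoprotein AZGP1 2012 ± 70.3 TPM and the cancer-testis gene PAGE1 1492 ± 58.8 TPM. These genes were picked after their levels were seen.

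Among surface antigens pursued as targets in prostate cancer, STEAP1 was the highest at 1583, 1528 and 1568 TPM. STEAP2 measured 821, 879 and 824 TPM, and FOLH1 882, 872 and 887 TPM, so these 2 genes overlapped. KLK2 and SLC44A4, a choline-related transporter, stood at 593 ± 17.2 and 359 ± 6.36 TPM. CD276, an immune checkpoint molecule, measured 29 ± 0.823 TPM and DLL3, a Notch ligand of neuroendocrine tumours, 17.6 ± 1.94 TPM. PSCA and TMEFF2 were the lowest of the 14 analysed, at 4.28 ± 1.03 and 3.67 ± 0.212 TPM. STEAP1 was above STEAP2 with a log2 ratio of 0.89 ± 0.08, an order that turned to -0.49 with the median length of a gene's annotated transcripts in place of its merged exons.

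The 31 genes commonly used as housekeeping references did not stand at a common level. They ran from EEF1A1 at 13498 TPM down to POLR2A, the largest subunit of RNA polymerase, at 19 ± 2.73 TPM and TBP, the TATA-binding protein, at 16.1 ± 1.26 TPM, with a median of 256 TPM. GAPDH, a glycolytic enzyme, measured 2070, 2067 and 2181 TPM, and ACTB 2094, 2102 and 1975 TPM. They also differed in spread: VCP, an ATPase, had an SD of log2 values of 0.01 between libraries, HPRT1 0.08, PGK1 0.10 and POLR2A 0.20.

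Proliferation genes were spread around the median of the table, at a median of 10.8 TPM. PCNA, the sliding clamp of replication, measured 142, 130 and 131 TPM and was the only gene of the 24 at 100 TPM or more. RRM1, a subunit of ribonucleotide reductase, stood at 76.5 ± 2.76 TPM and MCM7, of the replicative helicase, at 55.3 ± 3.95 TPM. Mitotic genes were lower, with CDK1 at 32.1 ± 2.01, TOP2A at 8.29 ± 0.91 and PLK1 at 3.34 ± 0.109 TPM. MKI67, the gene of the Ki-67 antigen, measured 0.514, 1.19 and 0.526 TPM from 43, 92 and 43 reads, with library 2 apart from the others.

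Of 18 analysed members of the list of long noncoding RNAs, 4 stood at 100 TPM or more. Outside that list SNHG29, annotated as a processed transcript, reached 1171 ± 21.5 TPM and the lincRNA SNHG19 826 ± 42.4 TPM. Within it the host genes SNHG8, GAS5 and ZFAS1 measured 420 ± 21.1, 410 ± 14 and 366 ± 12.3 TPM and NORAD, which binds Pumilio proteins, 396 ± 17.7 TPM. The prostate cancer transcript SCHLAP1 stood at 24.2 ± 2.78 TPM and ARLNC1, named for its link to the androgen receptor, at 5.63 ± 1.14 TPM. MALAT1, a nuclear RNA, measured 43.1, 47.9 and 36 TPM and NEAT1, the scaffold of paraspeckles, 4.31, 6.89 and 3.63 TPM. PCAT1 and DRAIC were the lowest analysed at 2.95 ± 0.0378 and 0.636 ± 0.165 TPM. PCA3, PCGEM1 and H19 were not analysed here.

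Of 56 families examined, 52 had at least 2 analysed members. Shares are of the TPM of the analysed members, which in some families are few of those listed. The leading member held over 90% in 16 families, between 50% and 90% in 26, and under 50% in 10. The leader was the same in all 3 libraries for 51 families. The exception was the actin pair, in which ACTG1 measured 2068, 2090 and 2037 TPM and ACTB 2094, 2102 and 1975 TPM, a log2 ratio of 0.01 ± 0.03. With the longest annotated transcript as the length 47 families kept their leader, and with the median transcript length 42 did. A gene against a gene over 3 libraries cannot give a 2-sided exact paired p below 0.25, so orders are given by counts of libraries and ratios.

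Families with a near-sole member among those analysed included the keratins of type II, the enolases and the cadherins. KRT8 held 99.9% of the TPM of the 3 type II keratins analysed of 13 listed, with KRT80 at 0.276 ± 0.145 TPM and KRT2 at 3, 0 and 0 reads. ENO1 stood at 970 ± 34 TPM, ENO3, the muscle form, at 5.5 ± 0.669 and ENO2, the neuronal form, at 2.28 ± 0.0827 TPM. CDH1, epithelial cadherin, stood 274 times as high as CDH3, placental cadherin, at 1.77 ± 0.297 TPM. ALDOA measured 824 ± 12.6 TPM and ALDOC 32.8 ± 1.62 TPM, and MYC measured 171 ± 3.38 TPM against 7.01 ± 0.381 TPM for MYCL.

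Other families were shared among several members. The 6 peroxiredoxins, which remove peroxides, lay within 438 to 1675 TPM, with PRDX5 holding 31.1% and PRDX1 next at 1443 ± 50.8 TPM. Of the claudins, CLDN7 measured 537, 517 and 542 TPM, CLDN3 242 ± 1.9 TPM and CLDN4 219 ± 0.181 TPM. Among zinc transporters, of interest in a tissue known for its high zinc, SLC39A6 stood at 423 ± 10.1, SLC39A7 at 311 ± 11.2 and SLC39A8 at 106 ± 4.53 TPM, with SLC39A13 lowest at 7.23 ± 0.543 TPM. With the median transcript length SLC39A8 led in place of SLC39A6. NRAS stood at 107 ± 1.72 TPM and HRAS at 63 ± 1.61 TPM. PFKL and PFKP did not separate, at 29.9 ± 0.852 and 29.7 ± 0.933 TPM, behind the muscle-type PFKM at 67.3 ± 1.54 TPM, and EGFR and ERBB2 overlapped at 28.1 ± 4.14 and 27.3 ± 2.3 TPM behind ERBB3 at 83.6 ± 6.01 TPM.

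In glucose and iron handling the leaders were clear in each library but their lead was modest. HK1 measured 145 ± 3.86 TPM and HK2 65.2 ± 2.4 TPM, SLC2A1 59.7 ± 2.19 and SLC2A12 26.7 ± 1.23 TPM, and ferritin heavy chain FTH1 2464 ± 104 TPM against the light chain FTL at 1601 ± 43.8 TPM. LDHB measured 547, 508 and 505 TPM and LDHA 301, 291 and 323 TPM, a log2 ratio of 0.77 ± 0.11 that became -0.21 with the median transcript length. Where paralogs are nearly identical in sequence, as in actins, tubulins, HSP90 genes and AKR1C genes, reads that fit both copies make their ratios uncertain.

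At the bottom of the table, 363 genes had a mean normalised count under 10 and 39 had at most 10 reads in all 3 libraries together. The table holds no gene with fewer than 61 reads over its 6 libraries, and 1297 genes had fewer than 61 reads in the 3 vehicle libraries. The 39 genes with 10 reads or fewer therefore owe most of their reads, and their place in the table, to the other 3 libraries. OASL, an interferon-induced antiviral gene, had 0 of 68311175 reads, which allows up to 3 reads in all, or 0.045 TPM at its length. AKR1C1, a steroid reductase, had 1 read, and IL32, a cytokine, KRT2, TNFRSF9, a costimulatory receptor, and the noncoding PRECSIT had 3 each. PSMB9, a subunit of the immunoproteasome, and TTR, a thyroid hormone carrier, had 4 each, and AKR1B10 and AKR1C3 had 5. Between 8 and 12 genes were at 0 in each library. At such levels counting error covers any difference between the libraries, and intervals and limits here cover counting error only.

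The spread between libraries was small for most genes. Among the 10279 genes with a mean normalised count of at least 100, the median SD of log2(value + 1) was 0.074 and the median coefficient of variation (CV) 5.15%. The CV was smaller at higher levels, from a median of 18.4% for means of 10 to 100 through 6.73% and 3.93% to 3.43% for means of 10000 or more, and levelled off above what counting alone gives. In these 4 classes the CV expected from counting alone was 16.8%, 4.87%, 2.15% and 0.741%. Under counting alone the median of CVs from 3 libraries would fall below such expected values. The chi-square per degree of freedom, which averages 1 where reads vary by counting alone, had a mean of 5.93. Its median, which would lie below 1 under counting alone, was 2.41, and 2807 genes exceeded 5. EEF1A1 illustrates this, with normalised counts of 469780, 443810 and 482887 and a CV of 4.27%.

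**Figure D4:**
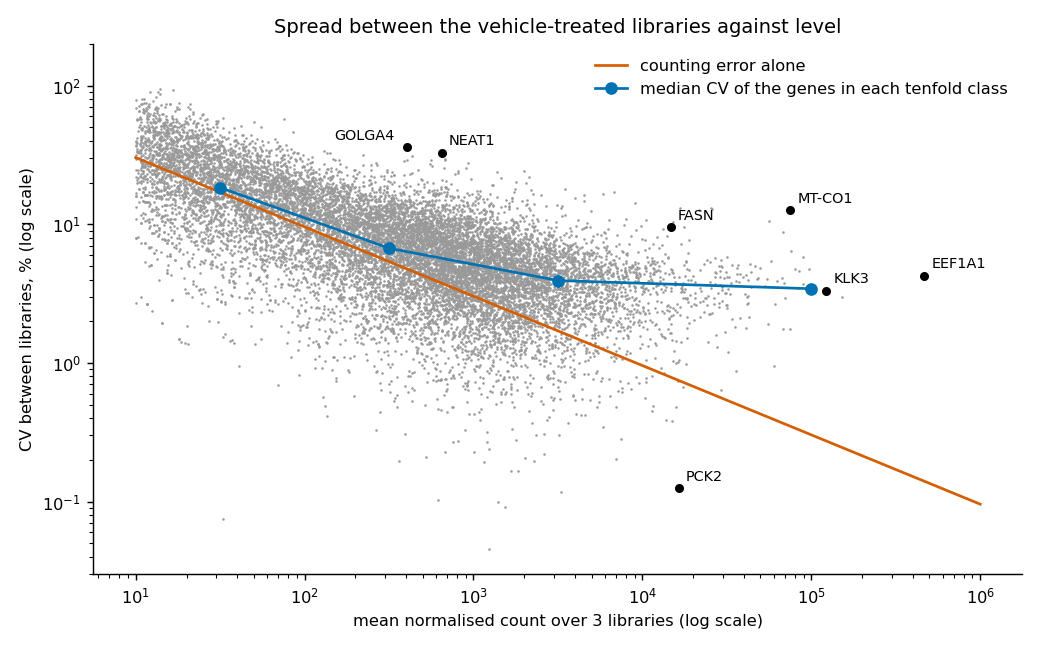
Coefficient of variation between the 3 libraries (y, log scale) against mean normalised count (x, log scale) for each gene with a mean of at least 10, with the CV from counting error alone as a line and the median CV of each of 4 classes of level as large points (medians 18.4%, 6.73%, 3.93% and 3.43%). The medians lie a little above the counting line, which is an expected CV and not a median, in the lowest class. They flatten farther above it at high levels, and GOLGA4, NEAT1 and MT-CO1 lie above the cloud.

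GOLGA4, a coiled-coil protein of the Golgi, was the only gene of these 10279 with an SD of 0.5 or more. It had 403, 597 and 309 reads, an SD of 0.501 and 6.49 ± 2.45 TPM. The count rests on all 3 libraries: without library 1 it was 10 genes, without library 2 it was 7 and without library 3 it was 19, each from 2 libraries. Among the next in spread was MYO9B, an unconventional myosin, with 163, 198 and 103 reads. AC005261.1, RPL7P1, NEAT1, TLCD2, RN7SL2, MSX2 and SOGA1 were also among the 10 widest, with SDs between 0.42 and 0.47. Library 2 was the highest for GOLGA4, MYO9B, NEAT1, TLCD2 and SOGA1, and library 1 for AC005261.1, RPL7P1, RN7SL2 and MSX2.

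The steadiest genes were UMAD1, TECR, MEST, ANKEF1 and DNAJC3. UMAD1 had normalised counts of 1237, 1238 and 1238. TECR, the last reductase of the fatty acid elongation cycle, had 1532, 1530 and 1529. With over 10000 genes, values this close are among those that counting alone would give for some of them. PCK2, the mitochondrial phosphoenolpyruvate carboxykinase, stood apart for its level, with 16397, 16360 and 16363.

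The deviations of the libraries from each other followed gene length. Each gene's log2 value in a library was compared with its mean over the 3 libraries. Genes were put in 5 equal groups by exonic length. In the shortest, 66 to 2896 bases, the median deviation was 0.040 in library 1 and -0.033 in library 2. In the longest, 8374 to 44677 bases, it was -0.057 in library 1 and 0.045 in library 2. Library 3 lay between -0.0033 and 0.0081 in all 5 groups. Across 10272 genes, which are not independent replicates, Spearman's rho of the deviation with exonic length was -0.397 for library 1, 0.337 for library 2 and 0.0407 for library 3. Among the widest genes named above, those highest in library 2 were longer than the median of 5142 bases. GOLGA4, MYO9B, NEAT1, TLCD2 and SOGA1 have exonic lengths of 10737, 9948, 22767, 5971 and 15128 bases. TLCD2 falls in the middle group, 4367 to 6010 bases. Those highest in library 1, AC005261.1, RPL7P1, RN7SL2 and MSX2, have 4258, 747, 300 and 2270 bases.

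**Figure D5:**
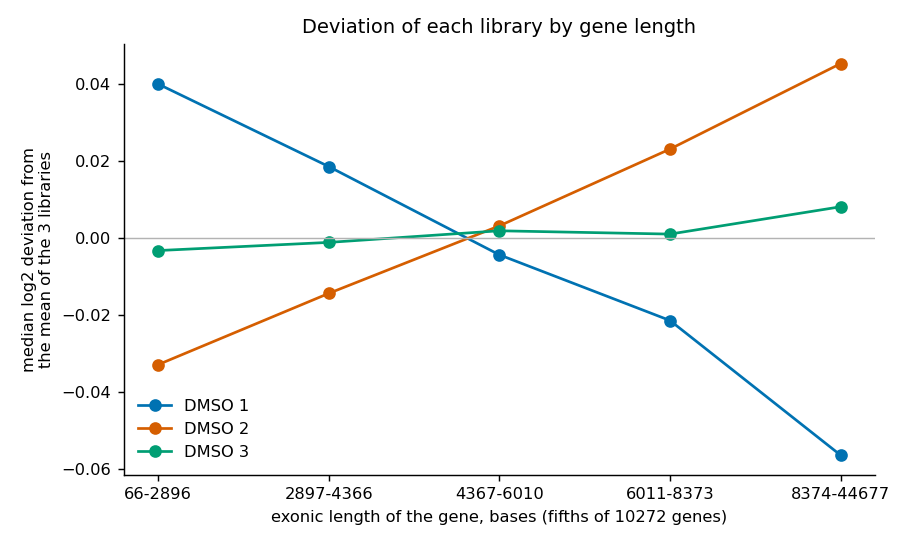
Median log2 deviation of each library from the mean of the 3 (y) in 5 equal groups of 10272 genes ordered by exonic length in bases (x), with a line for each library. Library 1 runs from 0.040 in the shortest genes to -0.057 in the longest, library 2 from -0.033 to 0.045, and library 3 stays near 0.

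The same tilt lies beside several values given above. The long genes FASN and ACACA were lowest in library 1, and the coregulators EP300 and CREBBP highest in library 2. SCD and ACLY were also lowest in library 1, with exonic lengths of 5362 and 5217 bases. Both fall in the middle length group, where the median deviation of library 1 was only -0.0044. Ribosomal protein genes took the largest share of TPM in library 1 and the smallest in library 2. Their exonic lengths are mixed, with RPS12 at 767 bases and RPS24 at 7857. How far length accounts for these differences was not tested, and the labels give no batch, date or RNA quality for the libraries.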

How the data were processed

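Poly(A)-selected RNA-seq of C4-2 cells was read from the authors' deposited table, and the 3 vehicle columns were matched to samples by the labels' descriptions. Per the submitters' processing notes the tools were Trimmomatic 0.36, STAR 2.5.2b, featureCounts from Subread 1.5.2 and DESeq2, on GRCh38; for the annotation release, the strand setting and the treatment of shared reads, nothing is given in the sources used here. Deposited signal values are counts divided by a size factor per library: each value was a whole multiple, within 0.01, of the library's value of 1 read (0.894, 0.944 and 0.918) for 100% of values, so reads were recovered by division. Genes were matched by Ensembl ID to GENCODE 29 (14409 of 14456) and given symbols (13603). TPM used merged exonic length. The 47 genes without a length (0.0153% of reads) have no TPM. Spread is the SD of log2(value + 1) with Python 3.11.15, numpy 2.4.6 and pandas 2.3.3. Errors are SDs over 3 libraries. No groups are compared, so no test was run. The chi-square per degree of freedom was tested on simulated data, and the SD of log2 values was not.

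The members, lists and families were chosen with earlier results of these data known. Named genes were the 30 highest in TPM, the 10 largest shares of reads, the leading 3 and lowest members of each of 56 families, the leading 3 and lowest 2 of each of 23 lists, the 10 widest and 5 steadiest genes with a mean of at least 100, and the 10 lowest read totals. Some genes that this rule names are not reported here. Other members of the lists, and other genes that the text singles out, were named after their values were seen. Alternatives were other gene lengths, mitochondrial genes left out, medians over libraries, other filters, scalings and pseudocounts (0.5 and 8), and each library left out; leaving out genes under 200 bases was added after seeing the data. Promoter windows came from RefSeq (GRCh38.p14).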

Additional observations from a re-analysis of the deposited data

How the results depend on the processing

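No paired analysis was possible because no groups are compared. With each library left out in turn, the share of reads of the top 10 genes, the numbers of genes holding 50% of reads, at 100 TPM or more and under 1 TPM, the shares of TPM, the median SD and the number of families with the same leader (51 of 52 without library 3) stayed within the spread between libraries or within 1.5 times. The number of genes with an SD of 0.5 or more did not, at 7 to 19 against 1. It was 3 with reads scaled to library totals, 0 with a pseudocount of 8, 18 with a mean of at least 50 and 714 with no filter on low values, where counting error is large. Ribosomal protein genes held 18.1% of TPM with the longest transcript as length, 15.4% with the median transcript length, 16.0% without mitochondrial genes and 15.2% without genes under 200 bases, against 14.7%. Androgen-induced genes held 1.77%, 2.11%, 1.86% and 1.77% under the same settings, against 1.71%, and fatty acid and cholesterol synthesis genes 0.827%, 1.06%, 0.977% and 0.928%, against 0.899%. With the median transcript length 1938 genes were under 1 TPM, against 1283.

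Log2 ratios of leading pairs that changed sign with the longest transcript were ACTG1 over ACTB at -0.23, TUBB4B over TUBB at -0.020, PRDX5 over PRDX1 at -0.087, AKT1 over AKT2 at -0.31 and ANXA7 over ANXA5 at -0.072. With the median transcript length they were STEAP1 over STEAP2 at -0.49, LDHB over LDHA at -0.21, ACTG1 over ACTB at -1.46, HSP90AB1 over HSP90AA1 at -2.33, PRDX5 over PRDX1 at -0.32, AKT1 over AKT2 at -0.89 and NRAS over HRAS at -0.29. With each library left out in turn ACTG1 over ACTB lay between -0.013 and 0.018, with the sign changed without library 3. Which transcripts the cells use was not tested, and gene-level reads cannot show it. Depth limits values under about 1 TPM, where the median SD of log2 values was 0.36.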
